A study of Mus musculus with 10 samples.

Results

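Endothelial transcripts of mouse small cell lung tumors and their liver metastases are described here through 35 genes, picked by symbol as general, lung capillary and liver sinusoidal markers of endothelium. Of these, 34 were found among the 35288 genes of the expression table, and Robo4os, an antisense transcript at Robo4, was not matched to a row. Members with a mean of at least 1 TPM (transcripts per 1000000, a level per transcript length) over the libraries numbered 31, out of 15503 such genes in all. The 34 fell into 11 general endothelial genes, 5 receptors, 3 transcription factors, 4 genes of sprouting endothelium, 4 lung capillary markers and 7 liver sinusoidal markers. Aplnr, Oit3 and Gata4 lay under that mean.

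RNA was sequenced from 10 tumors of 6 mice. RPR2 mice, a genetic model of small cell lung cancer in which the tumor suppressors Rb1, Trp53 and Rbl2 are inactivated, gave 3 lung tumors and 2 liver metastases. RPR2;Nfibf/f mice (hereafter Nfib-floxed) carry the same alleles and floxed Nfib, and gave 3 lung tumors and 2 liver metastases. Thus every tumor came from RPR2 alleles, no normal lung or liver was among the libraries, and the metastases came from mice whose lung tumor was also sequenced (JHK1373 and JHK1394 for RPR2, JHK1398 and JHK1399 for Nfib-floxed). Tumors were macrodissected, so that the RNA came from tumor cells, stroma, vessels and any adjoining organ, and endothelial cells were not sorted. How recombination was induced and the ages of the mice were not stated in the labels. Values below are in the order JHK1373, JHK1394, JHK1548 for RPR2 lung tumors, JHK1398, JHK1399, JHK997 for Nfib-floxed lung tumors, JHK1373, JHK1394 for RPR2 metastases and JHK1398, JHK1399 for Nfib-floxed metastases.

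Endothelial cells line blood and lymph vessels. They are joined by junction proteins such as VE-cadherin and claudin-5, and they read VEGF and angiopoietins through receptor tyrosine kinases. Lung capillaries are thin and continuous and serve gas exchange. Liver sinusoids are fenestrated, lack a tight barrier and carry scavenger and lectin receptors that clear material from the blood. In bulk RNA, fewer cells of a type and less RNA per cell cannot be told apart.

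The libraries differed in what else they held. A list of 22 hepatocyte genes summed to 14299 and 15065 TPM in the RPR2 metastases, to 198 and 4236 TPM in the Nfib-floxed metastases and to 268 to 2035 TPM in the lung tumors. The metastasis of JHK1398 therefore held fewer hepatocyte transcripts than any lung tumor, and Alb stood at 26.3 TPM there. Results are given with and without the libraries of JHK1398 where it matters. Club cell genes (6 genes) summed to 1677 to 60566 TPM in lung tumors and to 10.8 to 198 TPM in metastases. They were highest in the lung tumors of JHK1394 and JHK1398 and lowest in the metastasis of JHK1398. Erythroid genes (5 genes) summed to 64949 and 4140 TPM in the RPR2 metastases and to 476 and 42986 TPM in the Nfib-floxed metastases. In lung tumors the erythroid sum was 667 to 11754 TPM. Nfib, the floxed gene, stood at 28.3 to 643 TPM in RPR2 libraries and 26.5 to 46.1 TPM in Nfib-floxed ones. These ranges overlap, and a gene total does not show whether floxed exons were removed. Each library sums to 1000000 TPM, so the depth is unknown. Nothing in the labels makes the samples of a group separate litters or batches, and p-values measure only the spread between these samples.

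General endothelial markers were above 0 in every library. Pecam1, a junctional adhesion molecule (CD31), stood at 12.3, 23.9 and 10.02 TPM in RPR2 lung tumors, 12.3, 20.6 and 20.9 TPM in Nfib-floxed lung tumors, 8.21 and 8.89 TPM in the RPR2 metastases, and 8.58 and 7.80 TPM in the Nfib-floxed metastases. Every metastasis was below every lung tumor. Cdh5, VE-cadherin of the adherens junction, stood at 8.78, 15.4 and 5.49 TPM, then 7.14, 11.3 and 10.4 TPM, then 6.06 and 6.60 TPM, and then 4.47 and 4.91 TPM in the same groups. Kdr, the main signalling receptor for VEGF-A, stood at 4.62, 6.32 and 4.25 TPM, then 3.12, 5.15 and 8.52 TPM, then 3.30 and 4.16 TPM, and then 3.38 and 2.52 TPM. For both genes lung tumors and metastases overlapped, while the Nfib-floxed metastases were below the other 8 libraries in Cdh5.

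**Figure D1:**
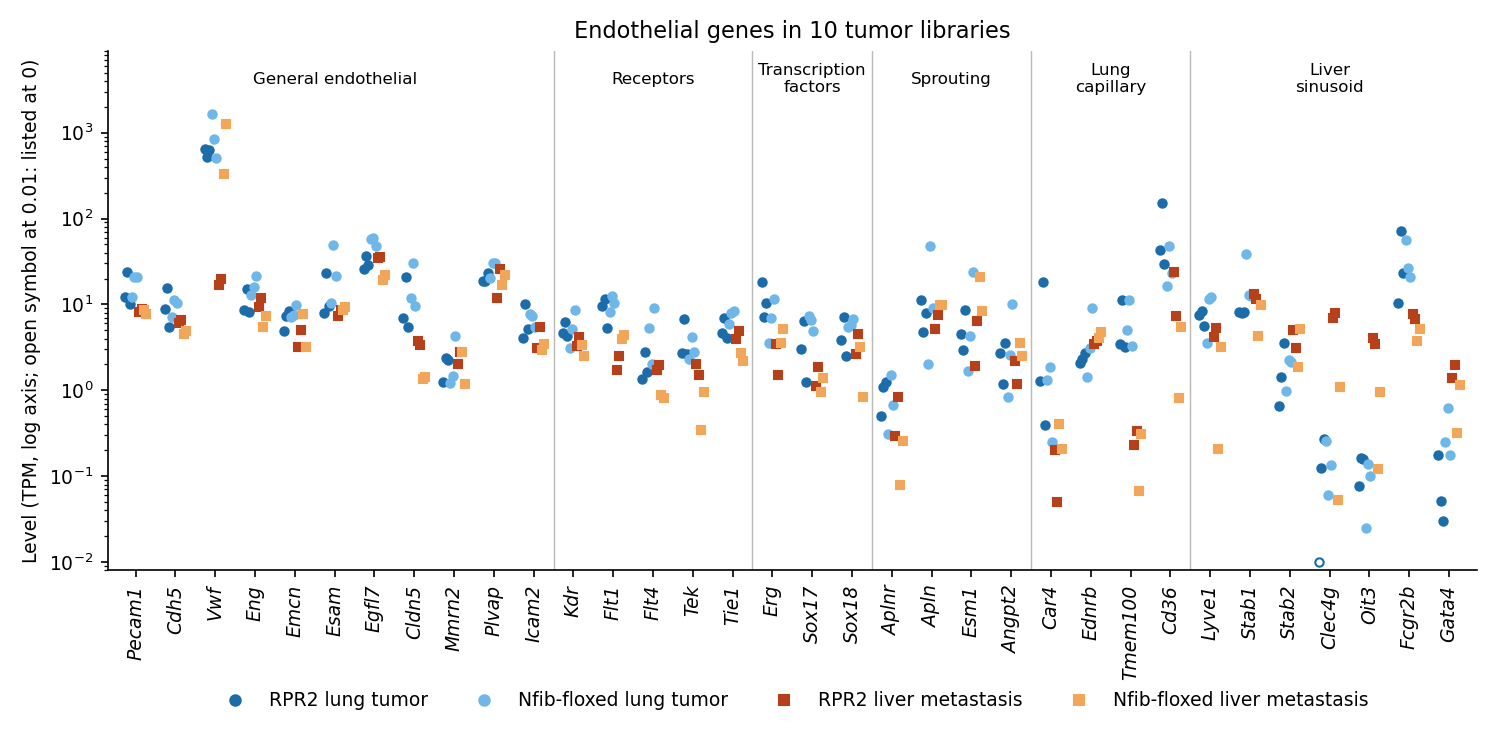
Level of 34 endothelial genes in each of 10 libraries (TPM, log axis), grouped by role; circles are lung tumors, squares liver metastases, dark symbols RPR2 and light symbols Nfib-floxed mice, and the open symbol marks a value listed at 0. Vwf lies far above the other members in 8 libraries and at 16.8 and 19.8 TPM in the RPR2 metastases, and Clec4g and Oit3 are highest in the RPR2 metastases.

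How far members moved against one another differed from gene to gene. The geometric mean of the 10 general genes without Vwf was 7.54 to 15.5 TPM in lung tumors and 5.46 to 8.26 TPM in metastases, ranges that overlap. Relative to that mean (each gene left out of its own), Tie1, an orphan receptor that modulates angiopoietin signalling, varied 1.58-fold between its lowest and highest library. The same ratio was 1.65 for Pecam1, 1.73 for Eng (endoglin, a TGF-beta and BMP co-receptor), 1.87 for Cdh5 and 1.98 for Kdr. Among the other general genes it was 2.14 for Icam2, 2.45 for Egfl7, 3.01 to 3.54 for Emcn, Plvap and Esam, 6.08 for Mmrn2 and 10.8 for Cldn5. Vwf varied 97.2-fold on this scale, Cd36 75.8-fold and Tmem100 69.8-fold, the last with a lowest level of 0.07 TPM. These were not the widest ratios. Car4 (0.05 to 18.4 TPM) and Oit3 (0.02 to 4.09 TPM), both very low in some libraries, varied more on this scale. Clec4g was listed at 0 in the RPR2 lung tumor of JHK1373, so it has no such ratio. Vwf was left out of the base after its level was seen.

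Vwf, von Willebrand factor, is a large glycoprotein stored in endothelial granules and platelets that binds platelets at sites of injury. It lies on chromosome 6 (GRCm38, chr6:125546774-125686679, plus strand). It stood at 638, 522 and 623 TPM in RPR2 lung tumors, 1655, 838 and 510 TPM in Nfib-floxed lung tumors, 16.8 and 19.8 TPM in the RPR2 metastases, and 332 and 1272 TPM in the Nfib-floxed metastases. Both RPR2 metastases were below every other library by a wide margin, and the Nfib-floxed metastases spanned the lung tumors' range from below to within it. The highest of the other 33 members was at 29.3 to 150 TPM in the lung tumors and 20.8 to 35.9 TPM in the metastases. Vwf was 36.1 to 164 times the geometric mean of the other general genes in lung tumors, 2.65 and 2.40 times in RPR2 metastases, and 56.6 and 233 times in Nfib-floxed metastases.

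**Figure D2:**
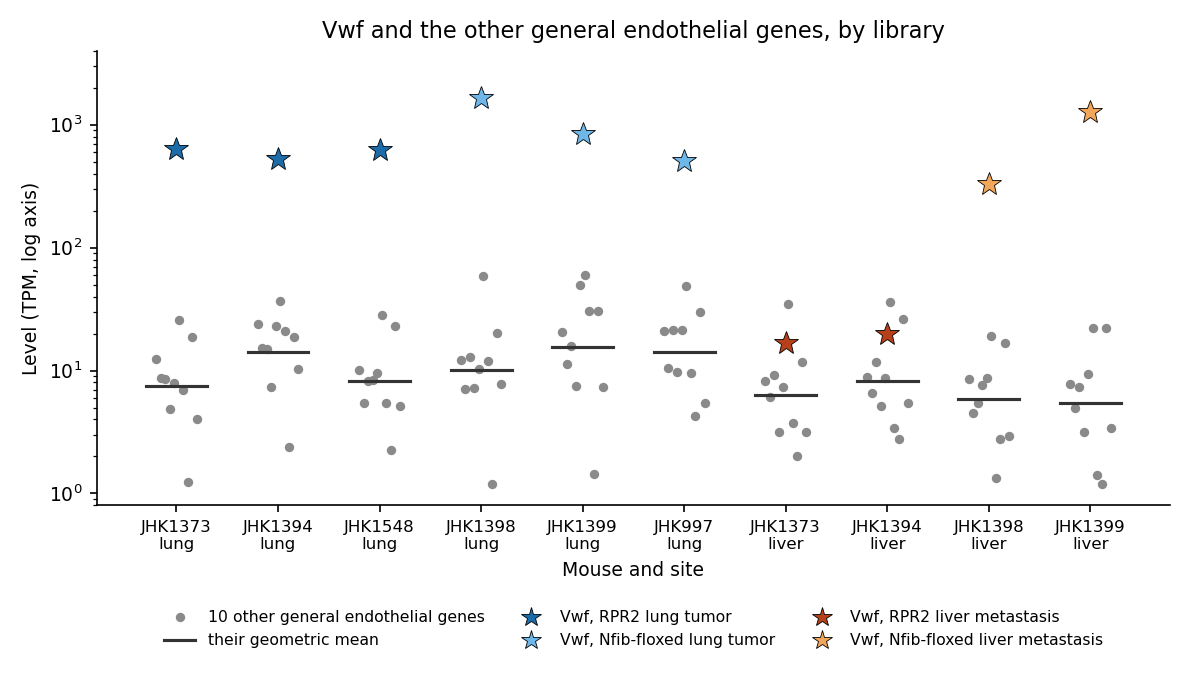
Vwf (stars, coloured by group) and the 10 other general endothelial genes (grey points, with their geometric mean as a bar) in each library, in TPM on a log axis. The geometric mean of the grey points ranges from 5.46 to 15.5 TPM, while Vwf ranges from 16.8 to 1655 TPM.

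Differences were tested with limma on log2(TPM + 1) over all 15503 genes, with Benjamini-Hochberg adjustment. On this scale changes of low genes are understated. In RPR2 mice Vwf was lower in metastases by -4.95 ± 0.57 (log2 difference ± standard error, adjusted p = 0.00137). Between metastases it was higher in Nfib-floxed mice by 5.08 ± 0.62 (adjusted p = 0.0029). Both Nfib-floxed metastases were above both RPR2 metastases, which with 2 libraries against 2 held for 23.8% of all genes. Neither the genotype difference between lung tumors (0.59 ± 0.51, adjusted p = 0.762) nor the site difference in Nfib-floxed mice (-0.45 ± 0.57, adjusted p = 0.856) passed, and the latter changed sign without both libraries of JHK1398 (0.96 ± 0.34, adjusted p = 0.851). The difference between the genotypes in the site effect was itself 4.49 ± 0.80 (adjusted p = 0.0408 by limma). With mouse as a fixed replicate block it was 4.05 ± 0.91 and did not pass (adjusted p = 0.184). Without both libraries of JHK1398, a choice made after seeing the data, it was 5.90 ± 0.42 (adjusted p = 0.0105). It also missed the threshold when either RPR2 metastasis, the Nfib-floxed metastasis of JHK1399, any RPR2 lung tumor, or the Nfib-floxed lung tumor of JHK1399 or JHK997 was left out.

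Some other transcripts followed Vwf in part across these libraries. Neuroendocrine tumor genes (8 of 8 found, none at 0 throughout) summed to 2392 and 3646 TPM in the RPR2 metastases and 7574 and 60887 TPM in the Nfib-floxed metastases. In lung tumors they summed to 9132 to 74536 TPM. There the order was not that of Vwf. The sum was lowest in JHK1398, where Vwf was highest, and highest in JHK997, where Vwf was lowest. Platelet genes (6 of 6 found) summed to 53.4 and 17.3 TPM in the RPR2 metastases, 4.95 and 37.7 TPM in the Nfib-floxed metastases and 20.8 to 53.5 TPM in lung tumors, and among metastases they were highest in an RPR2 one. Their part in the result was not tested. Cd9, a tetraspanin gene of many epithelia and the nearest coding gene upstream of Vwf, stood at 1796, 3762 and 1797 TPM, then 4001, 3956 and 3975 TPM, then 181 and 543 TPM, and then 2112 and 4422 TPM. It was lower in RPR2 metastases than in RPR2 lung tumors by -2.87 ± 0.54 (adjusted p = 0.0113) and higher in metastases of Nfib-floxed than of RPR2 mice by 3.28 ± 0.59 (adjusted p = 0.0212), and the difference of its site effects did not pass (2.49, adjusted p = 0.258). Cd9 was picked because it neighbours Vwf and is described after its values were seen. The next genes on that side, Tnfrsf1a and Plekhg6, passed in none of the 6 comparisons, and on the other side Ano2, Ntf3 and Kcna5 were at 0 to 5.11 TPM.

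Metastases were compared with lung tumors as the mean over both genotypes. Lower in metastases were 6 members, Vwf, Cldn5, Flt1, Tmem100, Cd36 and Fcgr2b, and 1 member, Clec4g, was higher. For Vwf and Clec4g the mean came mostly from RPR2 mice (-4.95 and 2.91), and neither passed in Nfib-floxed mice (-0.45 and 0.37). The 7 called are 7 of 31, against 5.88% of all genes tested (4.12% lower and 1.76% higher). Members were chosen with earlier results of these data known. Clec4g reached the filter through the RPR2 metastases alone, and Tmem100 through the lung tumors alone. These shares are therefore description and no independent support. Of the 31 members, 26 had a difference below 0, with a median of -0.73, against 58.4% of all genes and a median of -0.1005. Scaling bears on these figures. Under quantile normalization 24 of 31 members were below 0 with a median of -0.42, the median of all genes was 0.06, and calls over all genes were split into 381 lower and 371 higher rather than 638 and 273. By class, 10 of 11 general genes, all 5 receptors and all 3 transcription factors were below 0. Lung capillary genes had 3 of 4 below 0, and sinusoidal genes 3 of 5. In 6 members (Cldn5, Fcgr2b, Flt1, Pecam1, Tek and Tmem100) every metastasis was below every lung tumor, which held for 4.16% of all genes. No member had every metastasis above every lung tumor, which held for 0.587%.

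**Figure D3:**
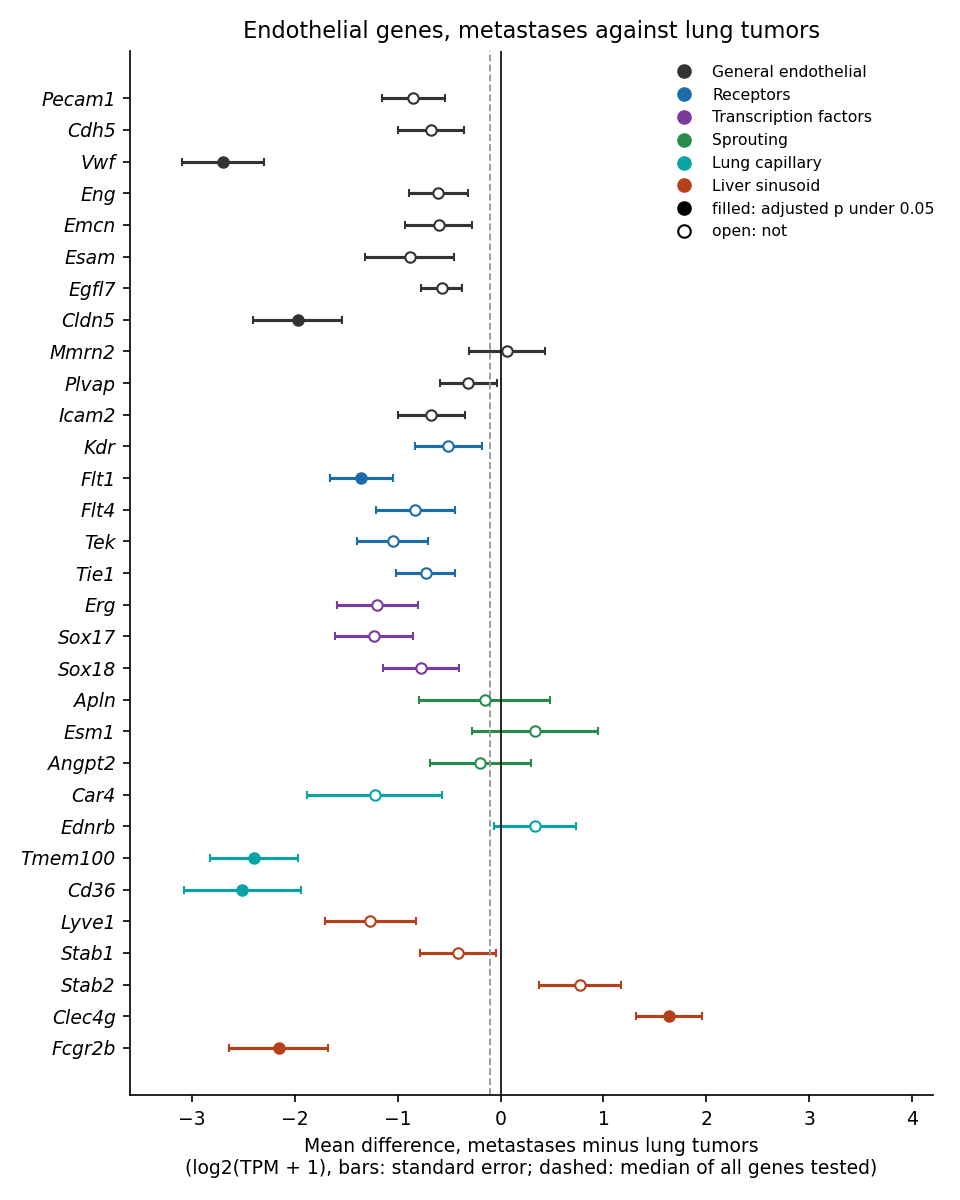
Mean log2(TPM + 1) difference of metastases minus lung tumors over both genotypes for the 31 members tested, with standard errors, coloured by role; filled points passed an adjusted p of 0.05. Most points lie left of 0, from -2.70 for Vwf, and Clec4g lies at 1.64, both values coming mostly from RPR2 mice.

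Within the general genes and receptors, 2 members besides Vwf were lower in metastases. Cldn5, claudin-5 of the endothelial tight junction, stood at 6.90, 21.0 and 5.41 TPM in RPR2 lung tumors, 11.9, 30.3 and 9.55 TPM in Nfib-floxed lung tumors, 3.74 and 3.40 TPM in the RPR2 metastases, and 1.34 and 1.41 TPM in the Nfib-floxed metastases. Its mean site difference was -1.97 ± 0.43 (adjusted p = 0.027). Flt1, a high-affinity VEGF receptor that also acts as a decoy, stood at 9.48, 11.6 and 5.25 TPM, then 8.16, 12.5 and 10.3 TPM, then 1.72 and 2.49 TPM, and then 3.99 and 4.46 TPM, a difference of -1.35 ± 0.31 (adjusted p = 0.03). For both genes lung tumors and metastases did not overlap. Tek, the angiopoietin receptor, was also below every lung tumor (2.33 to 6.76 TPM) in every metastasis (0.34 to 2.00 TPM), and it did not pass (-1.05 ± 0.35, adjusted p = 0.112). Tie1 ranged from 4.095 to 8.33 TPM in lung tumors and 2.18 to 4.87 TPM in metastases, and Flt4, the VEGF-C receptor, from 1.35 to 9.08 TPM and 0.81 to 1.95 TPM. They and Kdr differed by -0.73, -0.83 and -0.51 and did not pass. Neither did Pecam1 (-0.85 ± 0.31, adjusted p = 0.142) nor Cdh5 (-0.67 ± 0.32, adjusted p = 0.267). The other 7 general genes overlapped between sites and did not pass either. Egfl7 was the highest of them at 25.6 to 59.7 TPM in lung tumors and 19.2 to 35.9 TPM in metastases, followed by Plvap, the diaphragm protein of fenestrae, at 18.6 to 30.7 TPM and 11.7 to 26.1 TPM. Esam, an adhesion molecule of tight junctions, was at 7.95 to 49.5 TPM and 7.29 to 9.37 TPM, and Eng at 8.20 to 21.4 TPM and 5.41 to 11.8 TPM. Emcn, a sialomucin of veins and capillaries, Icam2, a leukocyte ligand, and Mmrn2, a matrix protein, lay between 1.18 and 10.2 TPM in all libraries. Mmrn2 was the general gene whose difference was above 0 (0.06). The transcription factors Sox17, Erg and Sox18 differed by -1.23, -1.20 and -0.77, with adjusted p-values of 0.0887, 0.11 and 0.267. Erg ranged from 3.53 to 18.1 TPM in lung tumors and 1.49 to 5.11 TPM in metastases. Sprouting genes showed no common direction. Esm1, a proteoglycan of tip cells, was at 1.69 to 24.0 TPM in lung tumors and 1.93 to 20.8 TPM in metastases (0.34). Apln, the apelin ligand, was at 2.02 to 47.6 TPM and 5.16 to 9.90 TPM (-0.15), and Angpt2, which destabilizes vessels, at 0.85 to 10.1 TPM and 1.19 to 3.56 TPM (-0.20). Aplnr, the apelin receptor, was at 0.31 to 1.497 TPM in lung tumors and 0.08 to 0.84 TPM in metastases.

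Promoters are shown for Flt1 and Cldn5, which were lower in metastases, and for Clec4g, which was higher, from RefSeq (GRCm38.p6, 250 bases before to 50 after the gene's start). They are at chr5:147725962-147726261 (minus strand), chr16:18776597-18776896 (plus strand) and chr8:3720602-3720901 (minus strand), each written 5′ to 3′ on the gene's strand. Capitals mark matches to AGGAAG or its reverse complement CTTCCT, a core that ETS factors such as Erg can bind; a stretch of longer capitals holds overlapping matches.
Flt1: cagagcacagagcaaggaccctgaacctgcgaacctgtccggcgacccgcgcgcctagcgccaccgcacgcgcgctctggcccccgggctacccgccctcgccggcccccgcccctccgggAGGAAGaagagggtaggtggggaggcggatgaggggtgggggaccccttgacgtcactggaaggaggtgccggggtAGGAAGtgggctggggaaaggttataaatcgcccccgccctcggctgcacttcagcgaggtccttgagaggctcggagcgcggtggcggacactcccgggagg
Cldn5: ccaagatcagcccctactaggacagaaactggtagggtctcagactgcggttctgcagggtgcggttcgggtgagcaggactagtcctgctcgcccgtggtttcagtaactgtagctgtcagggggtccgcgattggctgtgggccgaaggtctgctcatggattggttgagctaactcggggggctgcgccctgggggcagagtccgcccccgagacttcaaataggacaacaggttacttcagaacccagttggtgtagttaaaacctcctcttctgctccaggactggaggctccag
Clec4g: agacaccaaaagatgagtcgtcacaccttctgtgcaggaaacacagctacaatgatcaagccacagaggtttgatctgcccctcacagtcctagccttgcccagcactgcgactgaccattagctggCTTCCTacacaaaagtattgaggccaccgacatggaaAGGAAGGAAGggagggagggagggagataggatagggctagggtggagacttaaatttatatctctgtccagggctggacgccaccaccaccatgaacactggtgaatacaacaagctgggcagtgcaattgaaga
The Flt1 window holds 2 matches, that of Clec4g 3 and that of Cldn5 none. Of 23 promoter entries of 19 members, 11 hold this core on either strand, and 35.4% of all 32851 entries of that length do. Searched in the same way on both strands, AACAAT, a core of SOX factors, is in 4 of the 23 and in 10.7% of all. For AGATAA, which factors such as Gata4 can bind, it is 2 of the 23 and 11.2% of all. Neither is in the 3 windows printed. A match is a run of letters and is no evidence of binding.

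Lung capillary genes split. Tmem100, a membrane protein downstream of BMP signalling in lung endothelium, stood at 3.45, 11.4 and 3.16 TPM in RPR2 lung tumors, 5.09, 11.2 and 3.31 TPM in Nfib-floxed lung tumors, 0.23 and 0.34 TPM in the RPR2 metastases, and 0.07 and 0.31 TPM in the Nfib-floxed metastases. No metastasis came near a lung tumor, and the difference was -2.39 ± 0.43 (adjusted p = 0.0136). Tmem100 passed the filter on low values through the lung tumors alone. Its test between sites is therefore not independent of its selection and is given as description. Cd36, a fatty acid and thrombospondin receptor that macrophages, adipocytes and hepatocytes also make, stood at 42.7, 150 and 29.3 TPM, then 16.6, 48.3 and 23.1 TPM, then 24.0 and 7.29 TPM, and then 0.82 and 5.52 TPM. The RPR2 metastasis of JHK1373 overlapped the lung tumors, and the difference was -2.51 ± 0.57 (adjusted p = 0.0298). Car4, a carbonic anhydrase of aerocyte capillaries, stood at 1.27, 18.4 and 0.39 TPM, then 1.31, 1.87 and 0.25 TPM, then 0.20 and 0.05 TPM, and then 0.40 and 0.21 TPM. The lung tumor of JHK1394 set its range, and Car4 did not pass (-1.23 ± 0.66, adjusted p = 0.334). Ednrb, the endothelin B receptor, stood at 2.09, 2.32 and 2.73 TPM, then 1.44, 3.11 and 9.14 TPM, then 3.43 and 3.75 TPM, and then 4.103 and 4.77 TPM. It was higher in the metastasis than in the lung tumor of all 4 mice with both, with no share of all genes to set beside this. It did not pass (0.33 ± 0.40, adjusted p = 0.707).

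Transcripts of other lung cells followed these genes in part. Alveolar type 2 genes (8 of 8 found) reached a sum of 8182 TPM in JHK1394's lung tumor. They came to 177 to 3241 TPM in the other lung tumors and to 20.7 to 61.8 TPM in metastases. Macrophage genes (10 of 10 found) summed to 4757 TPM in JHK1394's lung tumor. Their sum was 583 to 1410 TPM in the other lung tumors and 193 to 631 TPM in metastases. Cd36, Car4, Tmem100 and the sinusoidal gene Fcgr2b (72.0 TPM) were highest in JHK1394's lung tumor. Tmem100 was nearly as high in that of JHK1399 (11.4 and 11.2 TPM). The part of these other cells in the differences was not tested. Without the lung tumors of JHK1394 and JHK1398, 4 of the 7 members remained called, Vwf (adjusted p = 0.0319), Tmem100 (adjusted p = 0.0361), Fcgr2b (adjusted p = 0.0419) and Clec4g (adjusted p = 0.0445). The other 3 did not pass, with log2 differences for Cd36 at -2.33 (adjusted p = 0.0607), Cldn5 at -1.79 (adjusted p = 0.051) and Flt1 at -1.32 (adjusted p = 0.0541).

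Of the liver sinusoidal genes, a few marked the RPR2 metastases and the others did not. Clec4g, a C-type lectin of sinusoidal endothelium known as LSECtin, was listed at 0, 0.12 and 0.27 TPM in RPR2 lung tumors, 0.26, 0.06 and 0.13 TPM in Nfib-floxed lung tumors, 6.93 and 7.99 TPM in the RPR2 metastases, and 0.05 and 1.08 TPM in the Nfib-floxed metastases. The RPR2 metastases were above all other libraries, and the Nfib-floxed metastasis of JHK1398 was within the lung tumors. Clec4g passed the filter on low values through the RPR2 metastases alone. Tests that use those metastases are therefore not independent of its selection and are given as description. Clec4g was higher in RPR2 metastases than RPR2 lung tumors by 2.91 ± 0.45 (adjusted p = 0.00538). It was lower in Nfib-floxed than RPR2 metastases by -2.51 ± 0.50 (adjusted p = 0.0333), and higher in metastases over both genotypes by 1.64 ± 0.32 (adjusted p = 0.0177). The difference of the site effects did not pass (-2.54 ± 0.64, adjusted p = 0.165). Without both libraries of JHK1398 the genotype difference between metastases was -2.02 ± 0.51 and did not pass (adjusted p = 0.0953).

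Oit3 and Gata4 had the same order of libraries in part. Oit3, a secreted protein of liver sinusoids, stood at 0.08, 0.16 and 0.16 TPM, then 0.02, 0.14 and 0.10 TPM, then 4.09 and 3.47 TPM, and then 0.12 and 0.97 TPM. Gata4, a transcription factor needed for sinusoidal identity, stood at 0.18, 0.05 and 0.03 TPM, then 0.25, 0.62 and 0.18 TPM, then 1.40 and 1.96 TPM, and then 0.32 and 1.16 TPM. With no filter on low values, Oit3 was higher in RPR2 metastases than RPR2 lung tumors by 2.08 ± 0.23 (adjusted p = 0.00341) and lower in Nfib-floxed than RPR2 metastases by -1.68 ± 0.25 (adjusted p = 0.0192). On the same terms Gata4 was higher in RPR2 metastases by 1.30 ± 0.24 (adjusted p = 0.0278). Its difference between the genotypes' metastases did not pass (-0.66 ± 0.26, adjusted p = 0.411). Both genes lay under the filter and were added after their values were seen, so these p-values are no independent support. Aplnr, also under the filter, passed in no comparison on these terms.

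The scavenger and Fc receptors had other orders of libraries. Stab2, which clears hyaluronan, stood at 0.65, 1.43 and 3.56 TPM, then 0.98, 2.26 and 2.16 TPM, then 5.04 and 3.12 TPM, and then 1.86 and 5.21 TPM. It was higher in the metastasis than in the lung tumor of all 4 mice with both, with no share of all genes to set beside this. It did not pass (0.77 ± 0.40, adjusted p = 0.312). Stab1, its relative that macrophages also make, stood at 7.88 to 39.0 TPM in lung tumors and 4.25 to 13.3 TPM in metastases (-0.41, adjusted p = 0.597). Lyve1, a hyaluronan receptor of sinusoids, lymphatics and some macrophages, stood at 3.56 to 12.4 TPM in lung tumors and 0.20 to 5.33 TPM in metastases (-1.27, adjusted p = 0.13). Fcgr2b, an inhibitory Fc receptor of sinusoids, B cells and myeloid cells, stood at 10.4, 72.0 and 23.4 TPM, then 56.0, 26.3 and 21.1 TPM, then 7.80 and 6.71 TPM, and then 3.72 and 5.201 TPM. Every metastasis was below every lung tumor. The difference was -2.16 ± 0.48 (adjusted p = 0.0287), opposite in sign to the mean difference of Clec4g.

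**Figure D4:**
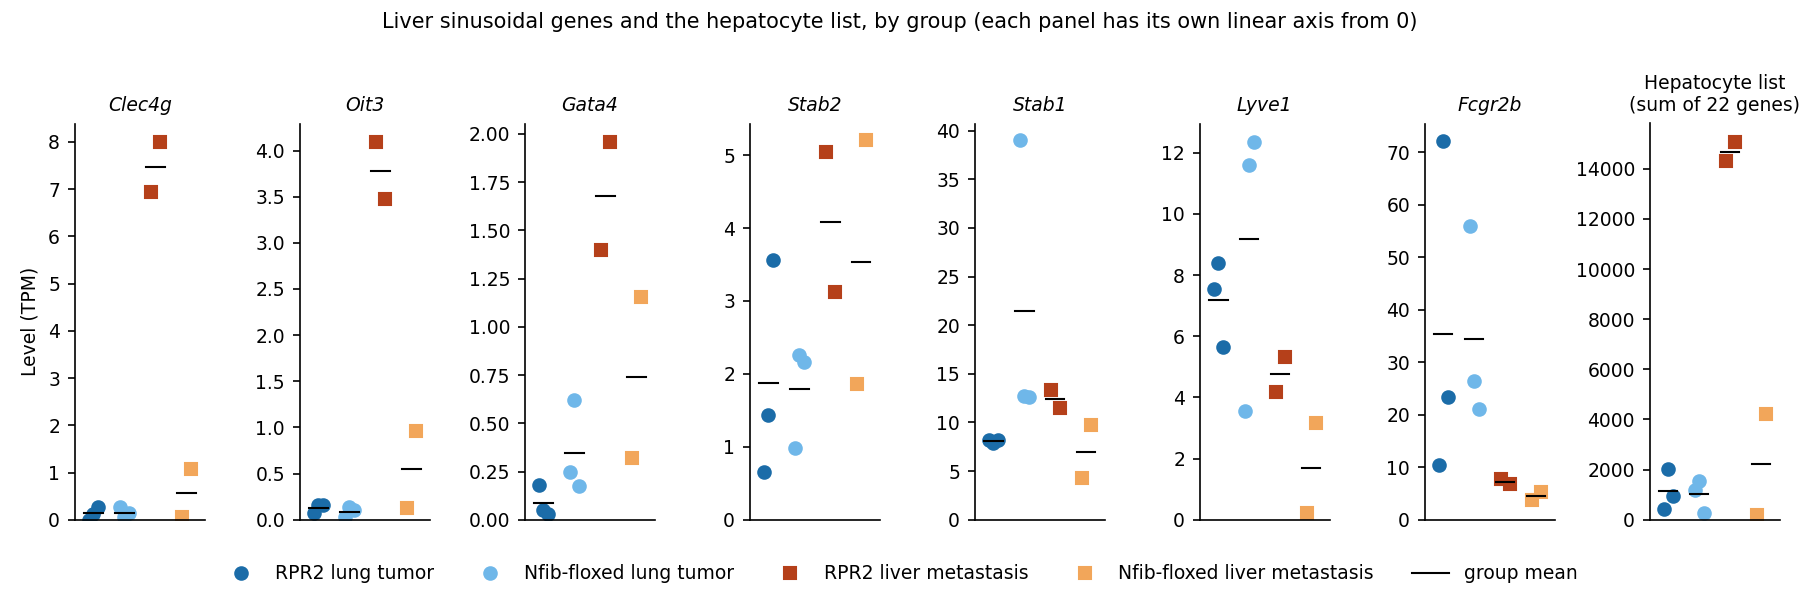
Levels (TPM, a linear axis from 0 in each panel) of the 7 liver sinusoidal genes and the summed hepatocyte list in each library, by group, with group means as lines. Clec4g and Oit3 are high in both RPR2 metastases, where the hepatocyte list is at 14299 and 15065 TPM, and Fcgr2b is highest in lung tumors.

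Liver cells moved with Clec4g and Oit3. The hepatocyte list was highest in the RPR2 metastases and at 198 TPM in the metastasis of JHK1398, where Clec4g was at 0.05 TPM. Kupffer cell genes (5 of 5 found) summed to 132 and 86.4 TPM in the RPR2 metastases, 10.7 and 14.0 TPM in the Nfib-floxed metastases and 2.15 to 24.7 TPM in lung tumors. B cell genes (6 genes), beside Fcgr2b, summed to 5.83 to 42.5 TPM in lung tumors and 0.79 to 5.24 TPM in metastases. Their part in the results was not tested. Relative to the geometric mean of the 10 general genes without Vwf, Clec4g was at 0 to 0.03 in lung tumors. It reached 1.09 in the RPR2 metastasis of JHK1373. In the Nfib-floxed metastases Clec4g was at 0.05 and 1.08 TPM, where that mean was 5.87 and 5.46 TPM.

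Site effects within each genotype called fewer members. In RPR2 mice 1 member was lower (Vwf) and 1 higher (Clec4g) of 31, while 5.61% of all genes were called. The members' median was -0.44 and 24 of 31 were below 0, against 59.6% of all genes; under median centring 19 of 31 were. With mouse as a random replicate block 4 members were called, with Flt1 (adjusted p = 0.0484) and Tmem100 (adjusted p = 0.0483) added. As a fixed block it called neither (adjusted p = 0.115 and 0.082). In Nfib-floxed mice no member was called by limma and 0.123% of all genes were. There 27 of 31 members were below 0, with a median of -1.01, against 53.7% of all genes. The largest differences were those of Cd36 (-2.997 ± 0.80), Cldn5 (-2.77 ± 0.61), Fcgr2b (-2.59 ± 0.68) and Tmem100 (-2.53 ± 0.61), with adjusted p-values of 0.28, 0.196, 0.28 and 0.222. The site effects of these 4 genes were not shown to differ between the genotypes (adjusted p = 0.642 to 0.97). Over both genotypes, the fixed replicate block called 4 members (Cd36, Cldn5, Tmem100 and Vwf) and not Flt1, Fcgr2b or Clec4g, whose differences were -1.50, -2.34 and 1.68 under it (adjusted p = 0.0941, 0.0715 and 0.103). Without both libraries of JHK1398, Vwf and Clec4g were called. The differences of the other 5 were then -2.36 for Tmem100, -2.21 for Cd36, -2.05 for Cldn5, -1.39 for Flt1 and -1.86 for Fcgr2b, with adjusted p-values of 0.0778, 0.147, 0.121, 0.0869 and 0.165.

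Within single mice the members mostly had lower values in the metastasis. Of 31 members, the metastasis had the lower value for 23 in JHK1373, for 22 in JHK1394, for 22 in JHK1398 and for 26 in JHK1399. Of all genes tested 65.9%, 49.8%, 44.2% and 58.1% were lower in these mice. In all 4 mice 15 members were lower, against 14.0% of all genes. Ednrb and Stab2 were higher in all 4. The share of all genes higher in all 4 is not given here, so that count is description only.

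Few members differed with the Nfib genotype. Between lung tumors no member was called, nor was any gene (0%), while 1230 genes had an unadjusted p under 0.05. Here 4 of 31 members were below 0, with a median of 0.26, against 57.6% of all genes and a median of -0.0984. Leaving out 1 lung tumor moved that count of 4. It was 12 without JHK997, 10 without JHK1373, 9 without JHK1399, 8 without JHK1548 and 6 without JHK1398, and the median was 0.49 without the last and 0.46 without JHK1394. Egfl7, a secreted matrix protein of endothelium, and Stab1 were higher in every Nfib-floxed lung tumor than in every RPR2 one, which held for 5.66% of genes, and no member was lower in this way, which held for 8.81%. Egfl7 was at 25.6 to 36.5 TPM in RPR2 lung tumors and 48.5 to 59.7 TPM in Nfib-floxed ones (0.87 ± 0.26, adjusted p = 0.595). Between metastases Vwf was higher and Clec4g lower in Nfib-floxed mice, 2 of 31 members, and 2.04% of all genes were called. With 2 libraries against 2, values of 8 members were all higher (23.8% of all genes) and of 12 all lower (22.0%). The interaction of genotype and site called Vwf of the 31 members, and 0.581% of all genes.

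Genes of further endothelial lists were counted in the same fit, in which 4.12% of all genes were lower in metastases and 1.76% higher. Some of the shares below lie near these. Of 19 other general endothelial genes, 18 were tested and 3 were lower in metastases over both genotypes. They were Calcrl, the adrenomedullin receptor (-2.26), Adgrf5, an adhesion receptor (-2.14), and Clec14a (-2.11). Robo4, a receptor that stabilizes vessels, stood at 1.37 to 5.203 TPM in lung tumors and 1.77 to 3.42 TPM in metastases. Acvrl1, the endothelial BMP9 receptor, was lower by -2.15, 1 of 7 BMP genes tested. The transcription factor Klf4 (-1.61) was 1 of 11 tested, and the lymphatic chemokine gene Ccl21a (-3.46), which has near-identical copies and is uncertain, 1 of 4. None of the 9 VEGF and angiopoietin ligands and co-receptors, 11 Notch and arteriovenous genes, 7 further sinusoidal or central vein genes and 5 adhesion genes passed.

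Ligands in the metastases differed by genotype in 1 case. Vegfa, which drives sprouting through Kdr and is made by many cells, stood at 117, 114 and 135 TPM, then 84.3, 185 and 156 TPM, then 33.01 and 70.3 TPM, and then 227 and 203 TPM. It was higher in metastases of Nfib-floxed than of RPR2 mice by 2.13 ± 0.43 (adjusted p = 0.0362). Dll4, the Notch ligand of tip cells, stood at 17.1 to 24.2 TPM in lung tumors, 4.46 and 17.7 TPM in the RPR2 metastases, and 5.40 and 11.8 TPM in the Nfib-floxed metastases and passed in no comparison. Id3, a BMP target (-3.43), was lower in Nfib-floxed metastases, 1 of 7 BMP genes tested. So was Nr2f2, a venous transcription factor that many stromal cells also make (-2.32), 1 of 11 tested. Vegfa was 1 of 9 tested. Over all these further lists, 1 of 71 genes tested was higher and 2 were lower, and 2.04% of all genes were called in this comparison.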

How the data were processed

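RNA from 10 tumors of 6 mice was polyA-selected and sequenced. The submitters' processing notes name build GRCm38 and the tools R 4.1.0, bcl2fastq 2.20 and Salmon 0.12.0. No annotation version or strand setting is named there. The authors deposited TPM, with a total of 1000000 in each library, so depth is unknown and no counting interval can be had. Antisense or overlapping genes and near-identical copies cannot be told apart with certainty.

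From these values log2(TPM + 1) was computed, keeping 15503 genes whose mean reached 1 TPM. Limma 3.58.1 in R 4.3.3 fitted 4 groups in 1 model without mouse, treating the lung tumor and metastasis of a mouse as independent, with moderated variance and a mean trend (residual degrees of freedom 6). Tests were two-sided in 6 comparisons, and adjusted p-values under 0.05 were called. Methods were tested on simulated data. Lung tumor and metastasis share a mouse tag in 4 mice and are pairs by design. Their deviations from group means correlated at -0.023, -0.008, 0.043 and 0.049 across genes. Other steps used Python 3.11.15, pandas 2.3.3 and matplotlib 3.10.9. Positions are from GENCODE annotation of GRCm38, and promoters from RefSeq.

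The members and lists were chosen with earlier results of these data known. Their shares beside those of all genes are therefore description. Values in every library are given for members past the threshold in any comparison, and for Pecam1, Cdh5, Kdr, Stab2, Clec4g, Car4 and Ednrb. Of other lists, up to 3 genes past the threshold are named, with Robo4, Vegfa and Dll4. Cd9 and the other neighbours of Vwf, Selp, Sele, Oit3, Gata4 and Egfl7 were added after their values were seen. Alternatives changed the pseudocount (0.1 or 5), the filter (none or 5 TPM), the scaling (quantiles, medians, or without genes of other organs), the block by mouse, the groups in the fit and the libraries kept. Leaving out both libraries of JHK1398 was added after seeing the data.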

Additional observations from a re-analysis of the deposited data

Results flagged for a closer look

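The site difference of Vwf, metastases minus lung tumors, was smaller in size in Nfib-floxed mice (-0.45, log2) than in RPR2 mice (-4.95). The signed difference between them, Nfib-floxed minus RPR2, was 4.49. It is listed because a test of the difference itself, the interaction of genotype and site in limma, passed (adjusted p = 0.0408). In JHK1373 and JHK1394, both RPR2, the metastasis was lower than the lung tumor by -5.17 and -4.65. In the Nfib-floxed mice the differences were -2.31 in JHK1398 and 0.60 in JHK1399.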

How the results depend on the processing

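No called difference of a member changed sign in any alternative. Of those that did not pass, Vwf between sites in Nfib-floxed mice went from -0.45 to 0.96, and Fcgr2b between lung tumors from 0.25 to -0.15, without both libraries of JHK1398. Vwf in RPR2 mice and over both genotypes, and Clec4g in RPR2 mice, passed in every alternative that gave a value. Clec4g reached the main filter through the RPR2 metastases alone, and Tmem100 through the lung tumors alone. The interaction of Vwf missed the threshold in 14 of 21 alternatives, with adjusted p from 0.0105 to 0.184, and the genotype difference of Vwf between metastases in 1 of 21 (0.00205 to 0.146). Over both genotypes Flt1 missed it in 13 of 21, Fcgr2b in 12 of 21, Cd36 in 10 of 21, Cldn5 in 9 of 21, Tmem100 in 5 of 20 and Clec4g in 4 of 20. Clec4g between metastases missed it in 8 of 20.

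Between metastases 2 members were called, 1 with a filter of 5 TPM, a pseudocount of 0.1 or both libraries of JHK1398 left out, and 0 with only the 2 groups compared. In RPR2 mice the count of 2 became 1 with a filter of 5 TPM and 4 with no filter or a pseudocount of 0.1. Over both genotypes 7 became 4 with no filter, quantile normalization or the lung tumors of JHK1394 and JHK1398 left out, 3 with a pseudocount of 5, and 2 without both libraries of JHK1398. The interaction count of 1 became 0 with median centring, no filter, a pseudocount of 5, quantile normalization or those lung tumors left out. The replicate block pairs libraries by mouse. As a random effect it moved the count in RPR2 mice from 2 to 4, and as a fixed effect it moved that over both genotypes from 7 to 4 and the interaction from 1 to 0. It changed no other count. No fixed block could be fitted for genotype comparisons, since each mouse has 1 genotype.

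Leaving out 1 library at a time gave 1 to 2 calls between metastases, 1 to 6 over both genotypes and 0 to 1 in the interaction. Without either RPR2 metastasis, Vwf alone was called over both genotypes, and the count was 2 once JHK1398's metastasis was left out. A metastasis group then rests on 1 library, assumed to vary like the others. Causes were not tested. Groups of 2 or 3 and unknown depth limit low genes such as Clec4g, Oit3 and Gata4.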

Other observations

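Selp, P-selectin of activated endothelium and platelets, stood at 4.12 to 60.1 TPM in lung tumors, 2.90 and 0.96 TPM in the RPR2 metastases, and 3.39 and 114 TPM in the Nfib-floxed metastases of JHK1398 and JHK1399. Sele, E-selectin, was at 15.5 TPM in the same metastasis of JHK1399 and at 0 to 0.15 TPM in the other 9 libraries. Both are single-library values in that group, and neither gene passed in any of the 6 comparisons. Arhgef15, an endothelial guanine nucleotide exchange factor, stood at 2.50 and 9.21 TPM in the RPR2 metastases, and at 29.6 and 21.6 TPM in the Nfib-floxed metastases, beside 17.8 to 46.5 TPM in lung tumors. It was lower in RPR2 metastases than in RPR2 lung tumors by -2.48 ± 0.47 (adjusted p = 0.0123 by limma).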
